A study of Mus musculus with 24 samples.

Results

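Macrophages can fuse into multinucleated giant cells, and interleukin 4 (IL4) is the cytokine classically used to drive that fusion. The 10 genes described here encode proteins tied to macrophage or osteoclast fusion: the membrane proteins Dcstamp and Ocstamp, the proton pump subunit Atp6v0d2, the tetraspanins Cd9 and Cd81, the receptor Trem2 with its adaptor Tyrobp, the inhibitory receptor Cd200r1, and the receptor Sirpa with its ligand Cd47. They were chosen by symbol, and all 10 were found among the 23307 gene symbols that both tables hold. Fusion itself and protein were not measured in these data, which give RNA levels in bulk samples.

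The series asked how mouse macrophages change without Tet2, which converts 5-methylcytosine in DNA to 5-hydroxymethylcytosine. Bone marrow-derived macrophages (BMDM) were grown for 7 days from C57BL/6 marrow labelled Tet2 knockout or wild type, with conditioned medium and macrophage colony-stimulating factor. They were left untreated (0 h) or given 20 ng/ml IL4 for 10 or 24 h, with 2 libraries in each of the 6 groups, which the design text calls biological replicates. Tumour-associated macrophages (TAM) were sorted as CD11b+F4/80+ cells 4 weeks after YUMM1.7 melanoma cells were injected under the skin of C57BL/6J mice aged 6 to 8 weeks and described as male. The labelled knockout hosts were LysMcre +/wt with Tet2 fl/fl, so that deletion depends on Cre made in myeloid cells, and the wild-type hosts were LysMcre wt/wt with the same Tet2 fl/fl alleles. Each TAM group had 4 libraries. No label says that these came from separate animals, so the p-values measure only the spread between these libraries. A further 4 libraries of immunoprecipitated 5-hydroxymethylcytosine were not analysed here.

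Expression is given as FPKM, a fragment count divided by transcript length and library total, and differences as log2(FPKM + 1) ± SE, a scale that understates the change of genes at low levels. Library depth is unknown, because FPKM holds no counts. Tests are limma's, with Benjamini-Hochberg adjusted p over all genes tested and a threshold of 0.05. Genes under 1 FPKM in all but a few libraries were left out of the tests (the minimum was 2 BMDM or 4 TAM libraries at 1 FPKM).

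Several facts of the series bear on what follows. Tet2 itself did not pass between genotypes at any time or in TAM (adjusted p = 0.418 to 0.837), and the groups are called by their label. It had 4.02 and 4.48 FPKM in labelled knockout against 4.11 and 5.91 FPKM in wild type at 0 h, 7.22 and 8.19 against 8.74 and 8.81 FPKM at 10 h, 10.3 and 11.3 against 9.38 and 9.82 FPKM at 24 h, and 14.4 to 19.0 against 7.75 to 16.1 FPKM in TAM. The labelled knockout pair was thus the lower one at 10 h and the higher one at 24 h, and the ranges overlapped at 0 h and in TAM. Which part of the gene was removed is not given, and the FPKM of a whole gene model need not show the loss of some exons. All 8 macrophage markers were above 1 FPKM in every library, and 7 of 8 melanoma markers were below 1 FPKM in every TAM library, the exception being Mitf, which macrophages also express. TAM wild-type library 8 stood apart. Its difference from each other TAM library had an SD of 0.793 to 1.09 log2 units across genes, against 0.344 to 0.789 among the others. Its fibroblast markers summed to 245 FPKM, against 10.5 to 28.5 FPKM in the 4 labelled knockout and 23.9 to 27.6 FPKM in the other 3 wild-type libraries. Xist, expressed in female cells, was 0.414 FPKM in library 8 and 62.4 to 128 FPKM in the other 7, whereas the labels name male mice.

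In mice, Dcstamp and Ocstamp are related multi-pass membrane proteins, and macrophages or osteoclast precursors that lack either do not fuse efficiently. Atp6v0d2 is a tissue-restricted d subunit of the vacuolar proton pump, also needed for osteoclast fusion in mice. TREM2 signals through TYROBP (DAP12) and the kinase SYK, and this pathway has been described as preparing macrophages for IL4-driven fusion. Mouse work describes CD9 and CD81 as restraining fusion of mononuclear phagocytes. IL4 signals mainly through the transcription factor STAT6.

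Upstream sequence was at hand for 4 of the 10 genes (Cd9, Cd81, Trem2 and Cd47), in RefSeq's GRCm38.p6 annotation, whereas the expression files use mm9. The 250 bases before the gene start are shown for Cd9 and Cd81, because these related tetraspanins differed in their response to IL4. Capitals mark GC boxes (GGGCGG) on the printed strand.
Cd9, chr6:125494761-125495010, minus strand: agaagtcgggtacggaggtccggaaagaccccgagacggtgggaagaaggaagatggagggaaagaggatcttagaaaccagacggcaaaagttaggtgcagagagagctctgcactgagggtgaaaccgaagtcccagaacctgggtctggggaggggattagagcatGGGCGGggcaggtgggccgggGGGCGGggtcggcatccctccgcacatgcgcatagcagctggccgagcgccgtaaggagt
Cd81, chr7:143052500-143052749, plus strand: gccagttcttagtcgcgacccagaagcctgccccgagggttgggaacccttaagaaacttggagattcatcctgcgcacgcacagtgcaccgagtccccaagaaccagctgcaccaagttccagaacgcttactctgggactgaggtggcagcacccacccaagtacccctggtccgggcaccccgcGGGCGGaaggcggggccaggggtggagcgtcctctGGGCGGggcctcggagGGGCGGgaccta
The GC box occurred 2 times in the Cd9 window and 3 times in the Cd81 window, searched on both strands, and 32.7% of the 32851 windows of that length in the table held it. The STAT6-type palindrome TTCNNNNGAA was in neither window, and 5.85% of all windows held it. The TATA box TATAAA was in neither (12.4% of all), nor was the PU.1 core GAGGAA (23.3% of all), on either strand. GC content was 61.6% for Cd9 and 65.6% for Cd81, against a median of 52.4% over all windows. These matches describe letters in short windows and say nothing of whether a factor binds there or elsewhere.

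Dcstamp and Ocstamp were near 0 FPKM before IL4 and had the largest rises of the 10 genes on the log2 scale at 24 h, and Atp6v0d2 and Cd9 rose from levels that were already well above 1 FPKM. Dcstamp in labelled knockout macrophages was at 0.145 and 0.224 FPKM untreated, 1.17 and 2.22 FPKM at 10 h, and 22.5 and 25.9 FPKM at 24 h. In wild type it was at 0.0883 and 0.116, then 1.88 and 2.34, then 28.6 and 34.0 FPKM. No level at one time overlapped the next in either genotype. Its log2 difference at 24 h against untreated was 4.41 ± 0.17 in labelled knockout (adjusted p = 1.9e-08) and 4.87 ± 0.17 in wild type (adjusted p = 9.4e-09), with n = 2 libraries per group here and below. Dcstamp, like Ocstamp, reached 1 FPKM only after IL4, so it had to differ to be tested. The mean FPKM at 10 h was 9.19 times the untreated mean in labelled knockout and 20.6 times in wild type, where the untreated means were 0.184 and 0.102 FPKM, and the mean at 24 h was 14.3 and 14.8 times that at 10 h. In bulk RNA, here and below, fewer cells of a type and less RNA per cell cannot be told apart.

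Ocstamp moved in step with Dcstamp in BMDM. It was at 0.0315 and 0.0544 FPKM in untreated labelled knockout libraries, 1.13 and 1.16 FPKM at 10 h, and 15.9 and 16.2 FPKM at 24 h. Wild-type libraries had 0.0331 and 0.0335 FPKM untreated, 1.03 and 1.92 FPKM at 10 h, and 16.6 and 28.2 FPKM at 24 h. The log2 difference at 24 h against untreated was 4.03 ± 0.21 in labelled knockout (adjusted p = 1.9e-07) and 4.46 ± 0.21 in wild type (adjusted p = 9.1e-08), and at 10 h it was 1.04 ± 0.21 (adjusted p = 0.00305) and 1.24 ± 0.21 (adjusted p = 0.00102). The mean FPKM at 10 h was 26.7 times the untreated mean of 0.0429 FPKM in labelled knockout and 44.3 times that of 0.0333 FPKM in wild type, and between 10 and 24 h it rose 14.0-fold and 15.2-fold. Ocstamp levels were 0.624 to 0.706 times those of Dcstamp in the labelled knockout libraries at 24 h and 0.580 to 0.831 times in wild type.

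Likeness of profile was measured as the root mean square difference of log2(FPKM + 1) over the 12 BMDM libraries, each gene centred on its untreated wild-type mean. The distance from a rising gene to an unchanged one is then set by the size of that rise. The medians below therefore largely show how far each gene rose. By that measure Ocstamp was the nearest of all tested genes to Dcstamp, and Dcstamp the nearest to Ocstamp, at 0.34 log2 units, where the median over all genes was 2.77 and 2.49. Fn1, which encodes the matrix protein fibronectin, came next for both (0.52 from Dcstamp and 0.48 from Ocstamp), followed by Cd74, the MHC class II invariant chain (0.65 and 0.57). For Atp6v0d2 the nearest were the transcription factor gene Bhlhe40 (0.14), the class II peptide-loading gene H2-DMa (0.19) and Flrt2, which encodes a membrane adhesion protein (0.22).

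Atp6v0d2 rose at both times and ended above Dcstamp and Ocstamp. Labelled knockout libraries had 20.8 and 20.8 FPKM untreated, 79.1 and 93.8 FPKM at 10 h, and 179 and 199 FPKM at 24 h. Wild-type libraries had 15.8 and 18.3 FPKM, then 75.6 and 81.9, then 159 and 182 FPKM. The log2 difference against untreated was 2.00 ± 0.12 at 10 h and 3.12 ± 0.12 at 24 h in labelled knockout (adjusted p = 8.8e-07 and 2.1e-08), and 2.15 ± 0.12 and 3.25 ± 0.12 in wild type (adjusted p = 5.6e-07 and 1.7e-08). Its ubiquitous paralog Atp6v0d1 did not pass at either time in either genotype, with differences of 0.14 ± 0.14 at 10 h and −0.30 ± 0.14 at 24 h in labelled knockout, and of 0.15 ± 0.14 and −0.28 ± 0.14 in wild type (adjusted p at least 0.105); it was lower at 24 h than at 10 h in both (adjusted p = 0.0445 and 0.0446). The level of Atp6v0d2 relative to Atp6v0d1 was 0.250 to 0.264 in untreated labelled knockout libraries, 0.864 to 1.08 at 10 h and 2.81 to 2.97 at 24 h. In wild type the same ratio was 0.230 to 0.248, then 0.949 to 1.05, then 2.38 to 3.58. The paralog was thus the more abundant d subunit RNA before IL4 and the less abundant after 24 h.

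**Figure D1:**
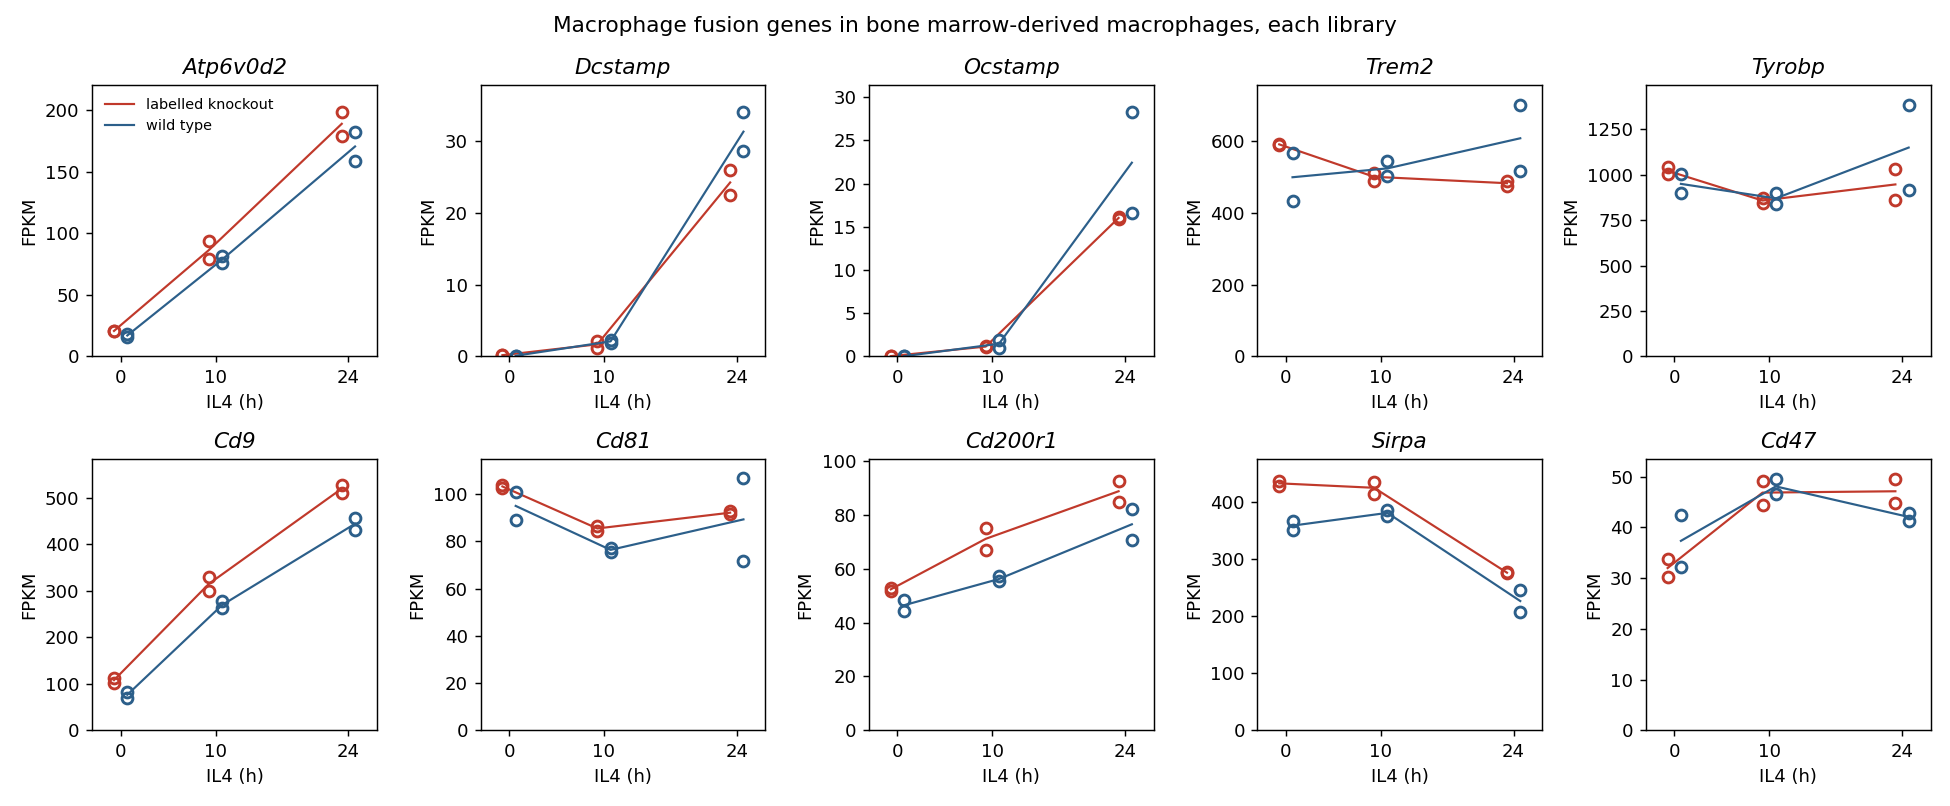
FPKM of the 10 fusion genes in each BMDM library against hours of IL4, with labelled knockout libraries in red, set left of wild-type libraries in blue, and lines through the group means (n = 2). Dcstamp and Ocstamp are near 0 FPKM untreated and gain most of their FPKM between 10 and 24 h, Atp6v0d2 and Cd9 rise at both times, and Sirpa is lower at 24 h.

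The tetraspanins diverged. Cd9 had 103 and 113 FPKM in untreated labelled knockout libraries, 299 and 331 FPKM at 10 h, and 512 and 529 FPKM at 24 h, against 69.8 and 82.8, then 262 and 277, then 432 and 457 FPKM in wild type. The log2 difference at 24 h against untreated was 2.26 ± 0.12 in labelled knockout (adjusted p = 1.8e-07) and 2.53 ± 0.12 in wild type (adjusted p = 7.7e-08). Cd81 had 103 and 104 FPKM in untreated labelled knockout libraries, 84.3 and 86.7 FPKM at 10 h and 91.5 and 92.9 FPKM at 24 h. In wild type it had 89.2 and 101, then 75.5 and 77.3, then 71.9 and 107 FPKM. It did not pass at 10 h (−0.27 ± 0.16 in labelled knockout and −0.31 ± 0.16 in wild type, adjusted p = 0.197 and 0.135) or at 24 h (−0.16 ± 0.16 and −0.11 ± 0.16, adjusted p = 0.430 and 0.569). With median-of-ratios scaling it passed as lower at 10 h in both genotypes (−0.34 and −0.41, adjusted p = 0.0359 and 0.0147), with only the groups compared it did so in labelled knockout (adjusted p = 0.00429), with quantile normalization it did so at both times (−0.70 to −0.44), and at 24 h in wild type it passed as lower without 24 h library 2 (−0.40, adjusted p = 0.0142). Cd9 stood at 0.987 to 1.10 times Cd81 in untreated labelled knockout libraries and at 5.59 to 5.69 times at 24 h, against 0.782 to 0.820 and 4.28 to 6.01 times in wild type.

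Trem2 and Tyrobp were the most abundant of the 10 genes in untreated macrophages, and neither passed the test for IL4 in either genotype, though several alternatives changed that. Trem2 had 589 and 589.9 FPKM in untreated labelled knockout libraries, 489 and 509.9 FPKM at 10 h and 475 and 488 FPKM at 24 h, against 431 and 565, then 502 and 544, then 514 and 699 FPKM in wild type. The labelled knockout values declined without overlap and the wild-type values overlapped between times. At 10 h against untreated Trem2 differed by −0.24 ± 0.17 in labelled knockout and 0.08 ± 0.17 in wild type (adjusted p = 0.286 and 0.720), and Tyrobp by −0.25 ± 0.18 and −0.13 ± 0.18 (adjusted p = 0.311 and 0.610). With quantile normalization, Trem2 passed as lower at 10 h in both (−0.39 and −0.31, adjusted p = 0.0131 and 0.0396) and Tyrobp in wild type (−0.47, adjusted p = 0.0208). With only the groups compared, both genes passed as lower at 10 h in labelled knockout (adjusted p = 0.00656 and 0.00612). At 24 h against untreated the Trem2 difference was −0.29 ± 0.17 in labelled knockout and 0.28 ± 0.17 in wild type (adjusted p = 0.183 and 0.184). The labelled knockout value passed as lower with median-of-ratios scaling (−0.35, adjusted p = 0.0382), with quantile normalization (−0.48, adjusted p = 0.00392) and with only the groups compared (adjusted p = 0.0304), and the wild-type value passed as higher without untreated library 1 (0.47, adjusted p = 0.0377) or without 24 h library 1 (0.50, adjusted p = 0.0327). Tyrobp ranged from 844 to 1041 FPKM in labelled knockout and from 839 to 1381 FPKM in wild type, with 24 h differences of −0.12 ± 0.18 and 0.25 ± 0.18 (adjusted p = 0.646 and 0.286); the wild-type value passed as higher without 24 h library 1 (0.54, adjusted p = 0.0192). Quantile normalization turned both wild-type differences at 24 h, to −0.27 for Trem2 and to −0.43 for Tyrobp, the second of which then passed as lower (adjusted p = 0.0258).

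Among the inhibitory receptors, Cd200r1 rose and Sirpa fell. Cd200r1, whose ligand is CD200, had 51.9 and 53.0 FPKM in untreated labelled knockout libraries, 67.2 and 75.3 FPKM at 10 h and 85.0 and 92.9 FPKM at 24 h, against 44.4 and 48.6, then 55.4 and 57.2, then 70.9 and 82.4 FPKM in wild type. Every time lay above the one before it in both genotypes. The difference at 24 h was 0.75 ± 0.11 in labelled knockout (adjusted p = 2.9e-04) and 0.71 ± 0.11 in wild type (adjusted p = 4.1e-04), and at 10 h it was 0.43 ± 0.11 (adjusted p = 0.00967) and 0.27 ± 0.11 (adjusted p = 0.0675). The labelled knockout call at 10 h was lost under quantile normalization (adjusted p = 0.299), without either untreated library (0.0642 and 0.0515) and without 10 h library 2 (0.0888). Sirpa, also described in rat as the macrophage fusion receptor, did not pass at 10 h (−0.03 ± 0.11 in labelled knockout and 0.09 ± 0.11 in wild type, adjusted p = 0.879 and 0.560) and fell at 24 h. With quantile normalization it passed as lower at 10 h in wild type (−0.34, adjusted p = 0.0151). It had 428 and 437 FPKM in untreated labelled knockout libraries, 414 and 435 FPKM at 10 h and 275 and 277 FPKM at 24 h, against 350.4 and 366, then 376 and 386, then 207 and 246 FPKM in wild type. The 24 h difference from untreated was −0.65 ± 0.11 in labelled knockout (adjusted p = 9.7e-04) and −0.67 ± 0.11 in wild type (adjusted p = 7.5e-04). The wild-type call was lost when only the groups compared were fitted (adjusted p = 0.0538).

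Cd47, the SIRPA ligand and a broadly expressed signal against engulfment, had 30.2 and 33.8 FPKM in untreated labelled knockout libraries, 44.5 and 49.2 FPKM at 10 h and 44.7 and 49.5 FPKM at 24 h. In wild type it had 32.3 and 42.4, then 46.6 and 49.5, then 41.3 and 42.8 FPKM. It passed as higher in labelled knockout at 10 h (0.54 ± 0.13, adjusted p = 0.00818) and 24 h (0.55 ± 0.13, adjusted p = 0.00653). In wild type it passed at 10 h (0.37 ± 0.13, adjusted p = 0.0433) and not at 24 h (0.18 ± 0.13, adjusted p = 0.275). The wild-type call at 10 h was lost under median-of-ratios scaling (adjusted p = 0.169), under quantile normalization (0.769), with no filter on low values (0.0783), with only the groups compared (0.117) and without untreated library 1 (0.226) or either 10 h library (0.107 and 0.188). The labelled knockout calls were lost under quantile normalization (0.139 at 10 h and 0.106 at 24 h), without untreated library 2 (0.0741 and 0.0623) and without library 2 of the treated group (0.0679 and 0.0571).

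By count, 6 of the 10 genes rose and 0 fell after 10 h of IL4 in labelled knockout, where 24.2% of all 10510 tested genes rose and 14.6% fell. In wild type 5 rose and 0 fell, where 28.2% of all genes rose and 14.2% fell. These counts at 10 h changed with the setting: with quantile normalization 4 passed as higher and 2 as lower in labelled knockout, and 4 as higher and 4 (Trem2, Tyrobp, Cd81 and Sirpa) as lower in wild type. With only the groups compared, 6 passed as higher and 3 as lower in labelled knockout. After 24 h, 6 rose and 1 fell in labelled knockout (26.5% and 17.1% of all genes), and 5 rose and 1 fell in wild type (29.7% and 20.3%). From 10 to 24 h, 4 rose and 1 fell in labelled knockout (12.1% and 10.9% of all genes), and 5 rose and 1 fell in wild type (11.6% and 14.3%). The members' median difference at 24 h was 0.65 in labelled knockout and 0.49 in wild type, against 0.07 and 0.06 over all genes. Dcstamp and Ocstamp were tested only because of their IL4-treated libraries, so they had to differ to be tested, and the counts above are a description. Rises among all calls at 10 h were 62.3% in labelled knockout and 66.5% in wild type, against 53.8% and 54.1% after median-of-ratios scaling and 48.8% and 48.9% after quantile normalization, which shifted the wild-type median of all genes by −0.11. At 24 h they were 60.8% in labelled knockout and 59.4% in wild type, and 48.3% and 47.6% after quantile normalization.

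**Figure D2:**
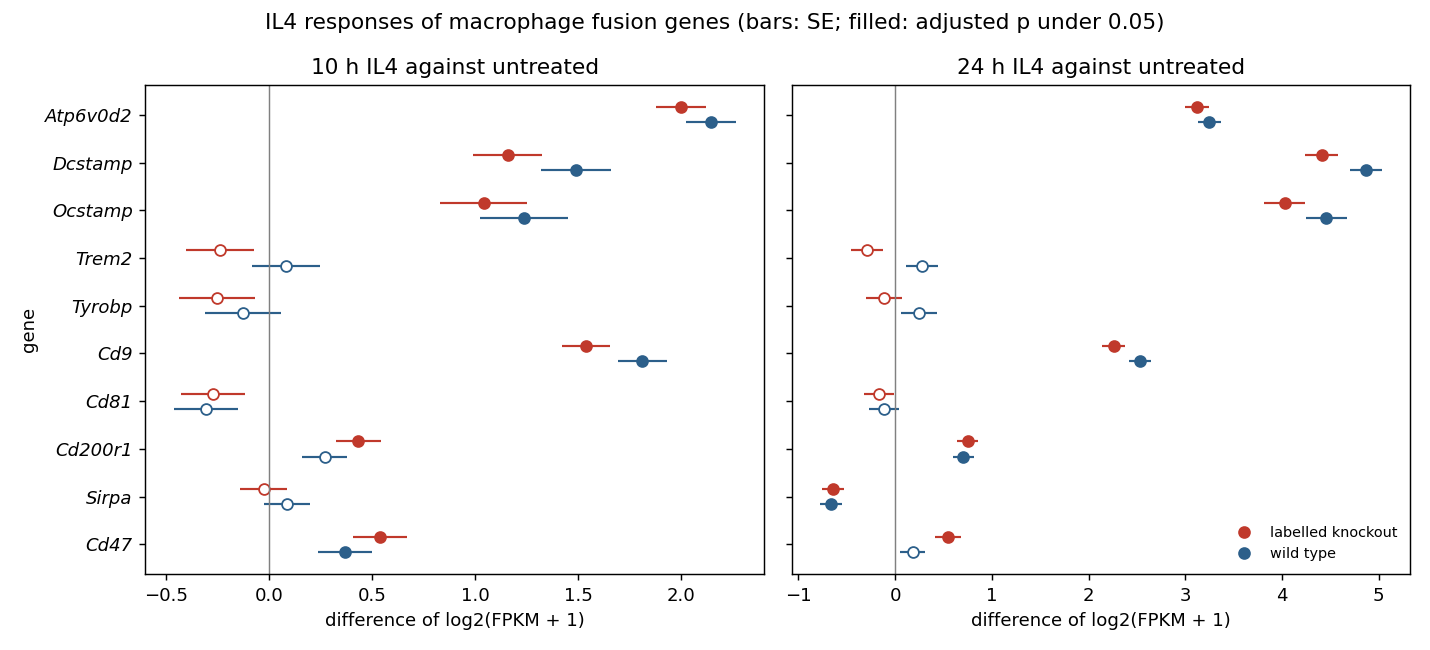
Differences of log2(FPKM + 1) after 10 h (left) and 24 h (right) of IL4 against untreated BMDM, in labelled knockout (red, upper point of each pair) and wild type (blue, lower point), with SE bars and filled points for adjusted p under 0.05. On this scale, which understates change at low levels, Dcstamp and Ocstamp lie below Atp6v0d2 and Cd9 at 10 h and above them at 24 h. As ratios of mean FPKM, Dcstamp and Ocstamp rose more already at 10 h (20.6 and 44.3 against 4.62 and 3.53 in wild type). In labelled knockout the ratios at 10 h were 9.19 and 26.7 against 4.16 and 2.92. Sirpa is the one filled point below 0.

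The order of levels changed with these shifts. In untreated wild type the mean levels ran Tyrobp (949 FPKM), Trem2 (498), Sirpa (358), Cd81 (95.1), Cd9 (76.3), Cd200r1 (46.5), Cd47 (37.3), Atp6v0d2 (17.1), Dcstamp (0.102) and Ocstamp (0.0333), and no neighbours in that order overlapped between libraries. At 24 h in wild type Cd9 (444 FPKM) came next after Trem2 and above Sirpa (226 FPKM), and Atp6v0d2 (171 FPKM) stood above Cd81 and Cd200r1, which overlapped. At 24 h in labelled knockout Cd9 averaged 520 ± 11.9 FPKM and Trem2 482 ± 9.06 FPKM (SD, n = 2), so that the tetraspanin lay above the receptor in both libraries.

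Other genes of these pathways moved in mixed directions after 24 h of IL4. For comparison with the lists here and in the next paragraph, 26.5% of all genes rose and 17.1% fell in labelled knockout. In wild type 29.7% rose and 20.3% fell. Of 26 tested genes linked elsewhere to fusion, 12 rose and 8 fell in labelled knockout, and 11 rose and 10 fell in wild type. The 3 with the smallest p in wild type all rose: Ccl2, a monocyte chemokine (3.13 ± 0.18 in labelled knockout and 3.70 ± 0.18 in wild type), Adam8, a membrane metalloproteinase (2.07 ± 0.15 and 2.50 ± 0.15), and Itgb2, the integrin beta 2 chain (1.36 ± 0.11 and 1.68 ± 0.11). Of 19 osteoclast genes, 8 rose and 4 fell in labelled knockout and 8 rose and 5 fell in wild type. Itgb3, a chain of the vitronectin receptor, averaged 14.5 FPKM at 24 h in labelled knockout and 10.9 FPKM in wild type, against 2.90 and 1.03 FPKM untreated. Acp5, the tartrate-resistant acid phosphatase of osteoclasts, rose by 1.28 ± 0.16 in labelled knockout, to 2.31 FPKM, and by 2.51 ± 0.16 in wild type, to 5.90 FPKM. The osteoclast genes Calcr and Oscar stayed under 1 FPKM in every library.

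Of 18 tested V-ATPase subunit genes, Atp6v0d2 included, 6 rose and 2 fell in labelled knockout and 8 rose and 0 fell in wild type. Atp6v1b2, a subunit of the pump's catalytic part, followed Atp6v0d2 with 1.25 ± 0.12 in labelled knockout and 1.23 ± 0.12 in wild type. Of 16 genes of DAP12-coupled receptors and their signalling, 2 rose and 6 fell in labelled knockout and 1 rose and 7 fell in wild type, with medians of −0.26 in both. The medians over all genes were 0.07 in labelled knockout and 0.06 in wild type. Inpp5d, a lipid phosphatase that restrains this signalling, had the smallest p (−1.14 ± 0.10 and −1.09 ± 0.10), and Syk changed by −0.54 ± 0.10 in labelled knockout and −0.27 ± 0.10 in wild type (adjusted p = 0.00122 and 0.0381). Of 16 tetraspanin and partner genes, 4 rose and 4 fell in labelled knockout and 7 rose and 4 fell in wild type, with Tspan5 up (1.68 ± 0.10 and 1.65 ± 0.10) and Cd82 down (−1.37 ± 0.12 and −1.23 ± 0.12). Of 14 genes of the CD200 and CD47 axes, 5 rose and 3 fell in labelled knockout and 3 rose and 3 fell in wild type. Dok2, an adaptor recruited by CD200R, averaged 160.4 FPKM at 24 h in labelled knockout and 197 FPKM in wild type, against 12.4 and 14.5 FPKM untreated. Thbs1, which encodes the CD47-binding thrombospondin 1, changed by −2.14 ± 0.11 in labelled knockout and −1.56 ± 0.11 in wild type.

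The genotype comparison asked whether the labelled loss of Tet2 altered these genes. None of the 10 passed at any time by limma: 0 untreated (2.7% of all genes passed, 3 members at an unadjusted p under 0.05), 0 at 10 h (2.84% of all genes, 1 member) and 0 at 24 h (7.43% of all genes, 1 member). Without a test, both labelled knockout libraries exceeded both wild-type libraries for 8 of 10 members untreated (27.8% of all genes), for 4 at 10 h (28.7%) and for 4 at 24 h (33.2%). Averaged over the 3 times, which uses all 12 libraries, 3 of 10 passed and all were higher in labelled knockout, where 9.94% of all genes passed and 7.06% were higher. The higher share of all calls was 71.0% for that average, 54.8% after median-of-ratios scaling and 54.2% after quantile normalization, and at 24 h it was 71.2%, 46.4% and 53.0%. These were Cd9 (0.32 ± 0.07, adjusted p = 0.0150), Cd200r1 (0.24 ± 0.06, adjusted p = 0.0372) and Sirpa (0.24 ± 0.07, adjusted p = 0.0433). The Cd9 call was lost without labelled knockout untreated library 1 (adjusted p = 0.0679), wild-type 10 h library 2 (0.0639) or labelled knockout 10 h library 2 (0.0624), with its direction kept. Cd200r1 was lost with median-of-ratios scaling (adjusted p = 0.0807) and Sirpa when 1 FPKM was required in every library (adjusted p = 0.0628), and leaving out single libraries ended the Cd200r1 call in 10 of 12 cases and the Sirpa call in 9 of 12, with no change of direction. With replicate numbers as a block the Cd9 call alone was left.

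By time, Cd9 differed by 0.50 ± 0.12 untreated (adjusted p = 0.0555), 0.22 ± 0.12 at 10 h (0.599) and 0.23 ± 0.12 at 24 h (0.261). Untreated Cd9 passed under median-of-ratios scaling (0.44, adjusted p = 0.0264), under quantile normalization (0.41, adjusted p = 0.0417) and without wild-type library 1 (0.62, adjusted p = 0.0115). Sirpa differed by 0.27 ± 0.11 untreated (adjusted p = 0.306), 0.16 ± 0.11 at 10 h (0.798) and 0.29 ± 0.11 at 24 h (0.141). Cd200r1 differed by 0.33 ± 0.11 at 10 h (adjusted p = 0.211) and 0.21 ± 0.11 at 24 h (0.250). Markers of fibroblasts, in which Cd9 is also expressed, differed in the same direction: the 8 genes summed to 21.0 to 22.9 FPKM in labelled knockout and 4.48 to 4.82 FPKM in wild type untreated, and to 9.24 to 9.46 against 2.43 to 2.45 FPKM at 24 h. Col3a1, Lum, Pdgfra and Thy1 of that list were below 1 FPKM in every BMDM library. Fibroblast markers were not alone in this. Untreated T and NK markers summed to 13.0 FPKM in each labelled knockout library and 4.60 to 4.88 FPKM in wild type. Untreated B, endothelial, mature osteoclast, and eosinophil, basophil and mast markers were also higher without overlap, at low sums. The untreated melanoma, dendritic, neutrophil and macrophage sums overlapped. The summed macrophage markers were 7312 to 7375 FPKM in labelled knockout and 9743 to 11376 FPKM in wild type at 24 h. The part of any of these markers in the genotype differences was not tested.

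For Dcstamp and Ocstamp the difference at 24 h was negative and did not pass. Dcstamp, with the values given above, differed by −0.35 ± 0.17 (adjusted p = 0.222; 95% interval −0.73 to 0.02), and Ocstamp by −0.41 ± 0.21 (adjusted p = 0.256; −0.88 to 0.06). For these genes and Trem2 the labelled knockout libraries were the lower pair without overlap, as for 17.4% of all tested genes. The Ocstamp value turned on the wild-type pair: without wild-type library 1 it was −0.78 (adjusted p = 0.0274), and without wild-type library 2 it was −0.05 (0.884). Trem2 differed by −0.32 ± 0.17 at 24 h (adjusted p = 0.269). Averaged over the times, Atp6v0d2 differed by 0.18 ± 0.07 (adjusted p = 0.144), Dcstamp by −0.16 ± 0.10 (0.368) and Ocstamp by −0.19 ± 0.12 (0.387).

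Whether the IL4 response itself differed between genotypes was tested as an interaction. None of the 10 passed by limma at 10 h (0.0951% of all genes, 0 members at an unadjusted p under 0.05) or at 24 h (0.295% of all genes, 1 member). That member was Trem2, whose 24 h response in labelled knockout minus that in wild type was −0.57 ± 0.24 (adjusted p = 0.242; 95% interval −1.09 to −0.05). The response of Dcstamp differed by −0.46 ± 0.24 (adjusted p = 0.335) and that of Cd47 by 0.37 ± 0.18 (adjusted p = 0.321). Without untreated wild-type library 1, the Cd47 difference passed (0.56, adjusted p = 0.0418).

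**Figure D3:**
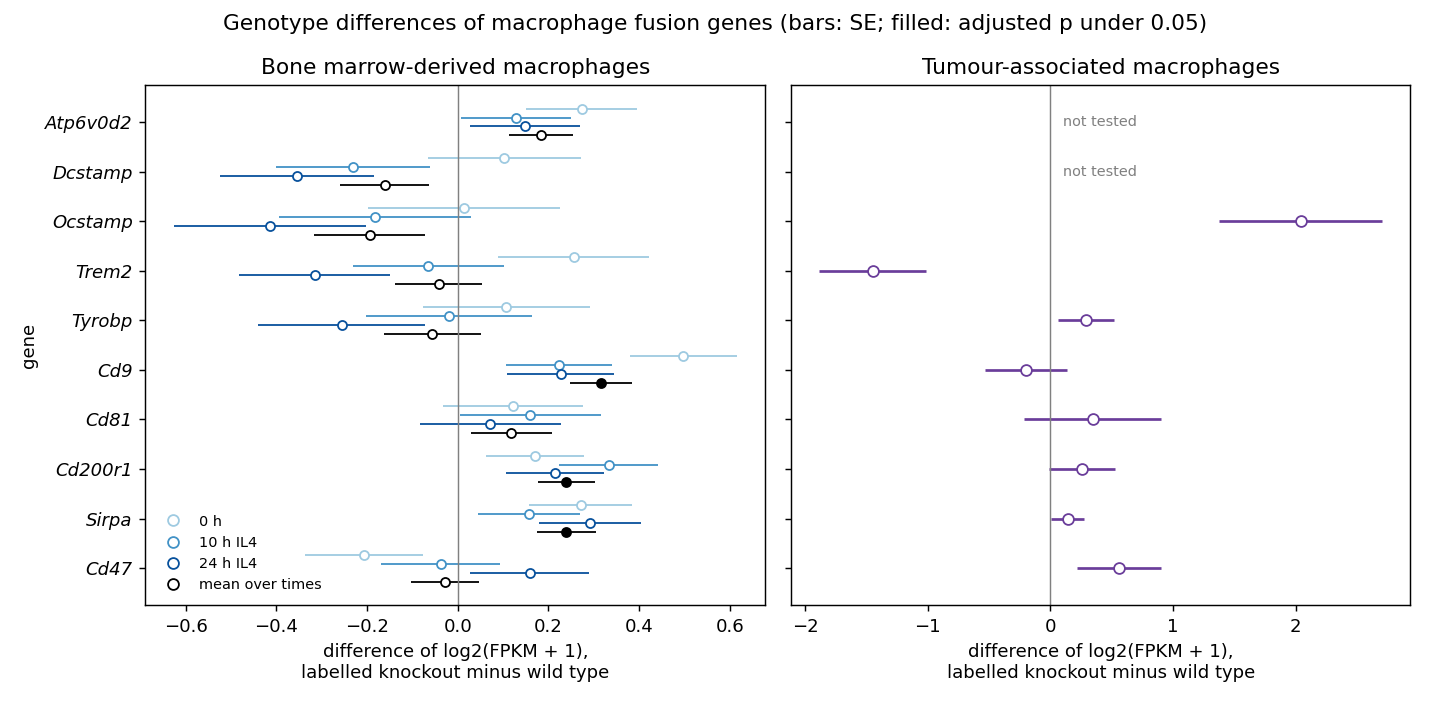
Labelled knockout minus wild type as a difference of log2(FPKM + 1), with SE bars, in BMDM at each time and averaged over times (left) and in TAM (right, on a wider scale); filled points have an adjusted p under 0.05. Only the averages for Cd9, Cd200r1 and Sirpa are filled, and in TAM Ocstamp lies at 2.04 and Trem2 at −1.45 with open points.

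Of the other pathway genes at 24 h, Itga4, an integrin chain, was higher in labelled knockout (0.80 ± 0.14, adjusted p = 0.0105), as was Cd44, a hyaluronan receptor linked to macrophage fusion (0.60 ± 0.13, adjusted p = 0.0203). Of the 26 tested fusion-linked genes 3 were higher and 1 lower. For comparison with these lists, 7.43% of all genes passed between genotypes at 24 h. Acp5 was the one osteoclast gene of 19 to pass, at 2.31 FPKM in labelled knockout and 5.90 FPKM in wild type (−1.05 ± 0.16, adjusted p = 0.00567). Of 16 DAP12 pathway genes 2 were higher, Clec5a, a DAP12-coupled lectin receptor (0.46 ± 0.10, adjusted p = 0.0265), and Pik3r1, a regulatory subunit of phosphoinositide 3-kinase (0.36 ± 0.08, adjusted p = 0.0298). Of 16 tetraspanin and partner genes 0 were higher and 1 lower, Tspan17 (−0.51 ± 0.14, adjusted p = 0.0488). No V-ATPase gene of 18 passed by limma. Thbs1 was lower by −0.60 ± 0.11 (adjusted p = 0.0144) and Rasa1, a Ras GTPase-activating protein, higher by 0.39 ± 0.10 (adjusted p = 0.0389), out of 14 genes of the CD200 and CD47 axes.

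In TAM the set looked different. Atp6v0d2 and Dcstamp were under 1 FPKM in every library and were not tested. Dcstamp was at 0.184, 0.185, 0 and 0.405 FPKM in labelled knockout libraries 3 to 6, and at 0.137, 0.284, 0.377 and 0.186 FPKM in wild-type libraries 1, 2, 7 and 8. Atp6v0d2 was at 0.0716 to 0.193 FPKM in labelled knockout and at 0.0912 to 0.999 FPKM in wild type, where library 8 had the highest value. The paralog Atp6v0d1 was at 78.2 to 136 FPKM in labelled knockout and at 70.8 to 119 FPKM in wild type. TAM libraries were made from polyadenylated RNA and BMDM libraries after depletion of ribosomal RNA, so levels were not tested between them.

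Ocstamp, in contrast, was well expressed in TAM without its relative Dcstamp. It was at 62.9, 64.6, 42.2 and 27.3 FPKM in labelled knockout libraries 3 to 6, against 19.2, 23.5, 12.7 and 1.64 FPKM in wild-type libraries 1, 2, 7 and 8. All labelled knockout libraries lay above all wild-type libraries, as for 9.13% of all 9897 genes tested in TAM. The mean was 49.3 ± 17.8 FPKM in labelled knockout and 14.3 ± 9.52 FPKM in wild type (SD, n = 4 each), a log2 difference of 2.04 ± 0.66 that did not pass (adjusted p = 0.204). Without wild-type library 8 it was 1.33 (adjusted p = 0.153), and with limma's array weights it was 1.77 and passed (adjusted p = 0.0114). Relative to Dcstamp, Ocstamp was 67.6 to 349 times higher in the 3 labelled knockout libraries where Dcstamp was above 0, and 8.80 to 140 times higher in wild type. Dcstamp was at 0.137 to 0.405 FPKM in these libraries, under the 1 FPKM needed for testing. The ratios are therefore imprecise and do not serve to compare the genotypes. Of the 4 osteoclast markers, Calcr and Oscar were under 1 FPKM in every TAM library. All 4 summed to 112, 121, 260 and 206 FPKM in labelled knockout libraries 3 to 6. In wild-type libraries 1, 2, 7 and 8 they summed to 158, 96.9, 105 and 65.2 FPKM. Labelled knockout libraries 5 and 6 thus had the highest sums and the lowest Ocstamp of their group. Acp5 made up most of the sums, at a mean of 173 FPKM in labelled knockout and 102 FPKM in wild type. It did not pass (0.76 ± 0.38, adjusted p = 0.339). Ctsk, another osteoclast gene, went the other way and did not pass (−0.72 ± 0.52, adjusted p = 0.490). The markers' part in the Ocstamp difference was not tested.

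**Figure D4:**
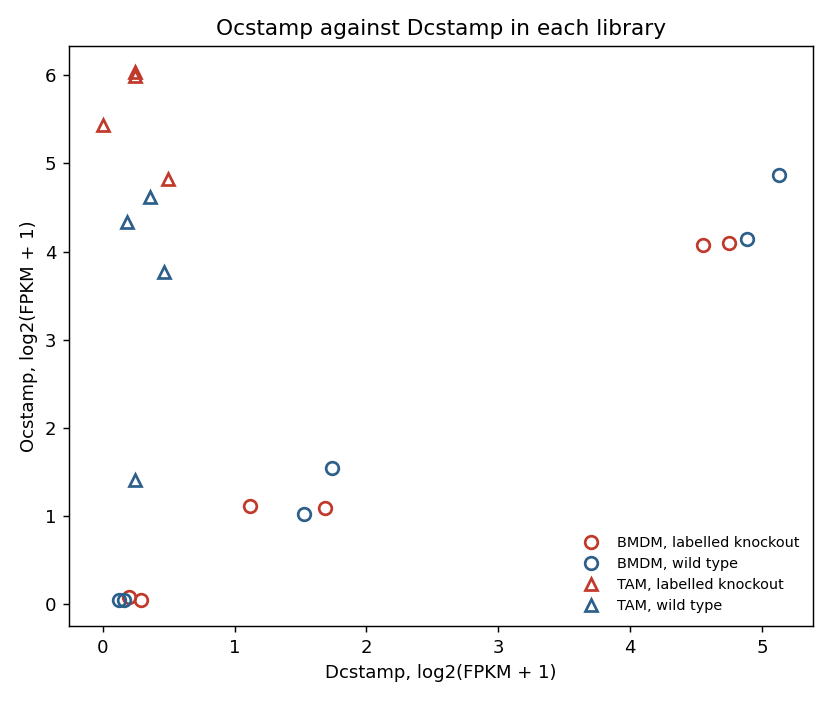
Ocstamp against Dcstamp as log2(FPKM + 1) in each of the 20 RNA libraries, labelled knockout in red and wild type in blue, BMDM as circles and TAM as triangles. BMDM libraries run up the diagonal with IL4, whereas TAM libraries have Dcstamp at most at 0.405 FPKM and Ocstamp from 1.64 to 64.6 FPKM, the labelled knockout libraries being the upper 4.

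Trem2 went in the opposite direction to Ocstamp in TAM. It was at 14.0, 13.9, 22.2 and 26.1 FPKM in labelled knockout libraries 3 to 6, against 70.1, 32.9, 27.9 and 111 FPKM in wild-type libraries 1, 2, 7 and 8. All labelled knockout libraries lay below all wild-type libraries, as for 3.27% of all tested genes, although the gap between 26.1 and 27.9 FPKM was small. The log2 difference of −1.45 ± 0.44 did not pass (adjusted p = 0.183). Without library 8, which had the highest value, it was −1.09 (adjusted p = 0.223), and with array weights −1.82, which passed (adjusted p = 0.00746). Trem2 relative to Tyrobp was 0.00720 to 0.0211 in labelled knockout and 0.0225 to 0.0990 in wild type. The summed macrophage markers also did not overlap, at 3116 to 5541 FPKM in labelled knockout and 6000 to 7771 FPKM in wild type, and their part in the Trem2 difference was not tested.

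Tyrobp was at 1851, 1924, 1154 and 1235 FPKM in labelled knockout libraries 3 to 6 and at 1273, 1291, 1239 and 1119 FPKM in wild-type libraries 1, 2, 7 and 8. Only libraries 3 and 4 stood above the wild-type range, and the difference of 0.29 ± 0.23 did not pass (adjusted p = 0.523), although it did with array weights (0.51, adjusted p = 0.0485). Cd47 had the same shape, at 125, 120.0, 83.5 and 80.8 FPKM in labelled knockout and 88.0, 88.8, 82.9 and 32.4 FPKM in wild type (0.56 ± 0.34, adjusted p = 0.416). Without library 8, which had the lowest value, it was 0.21 (adjusted p = 0.623). Markers of neutrophils, which also express both genes, summed to 6583 and 5494 FPKM in labelled knockout libraries 3 and 4 and 1477 and 1092 FPKM in 5 and 6. In wild-type libraries 1, 2, 7 and 8 they summed to 7773, 17522, 1113 and 860 FPKM. Mpo and Elane of that list were under 1 FPKM in every TAM library. The markers' part in the Tyrobp and Cd47 values was not tested. In both genotypes these values split by library number. Tyrobp, Cd47 and the neutrophil sum were each higher in libraries 1 to 4 than in libraries 5 to 8. So was Atp6v0d1, at 111 FPKM or more against 83.5 FPKM or less. Trem2 and Cd9 did not split in this way. TAM libraries were fitted by genotype alone, so this spread stays in the TAM SEs and p-values.

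The remaining 4 genes overlapped between genotypes in TAM. Sirpa was at 184 to 216 FPKM in labelled knockout, with a median of 193, and at 161 to 203 FPKM in wild type, with a median of 175 (0.14 ± 0.14, adjusted p = 0.610). Cd200r1 was at 6.49 to 13.2 FPKM in labelled knockout and 4.72 to 9.93 FPKM in wild type (0.26 ± 0.27, adjusted p = 0.632). Cd9 was at 25.7 to 51.1 FPKM and Cd81 at 49.1 to 195 FPKM in labelled knockout, against 24.6 to 63.9 and 30.1 to 142 FPKM in wild type, with differences of −0.20 ± 0.33 (adjusted p = 0.779) and 0.34 ± 0.56 (adjusted p = 0.776). The wide spread of Cd81 came from libraries on both sides, with labelled knockout libraries 5 and 6 at 195 and 117 FPKM and 3 and 4 at 51.0 and 49.1 FPKM.

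**Figure D5:**
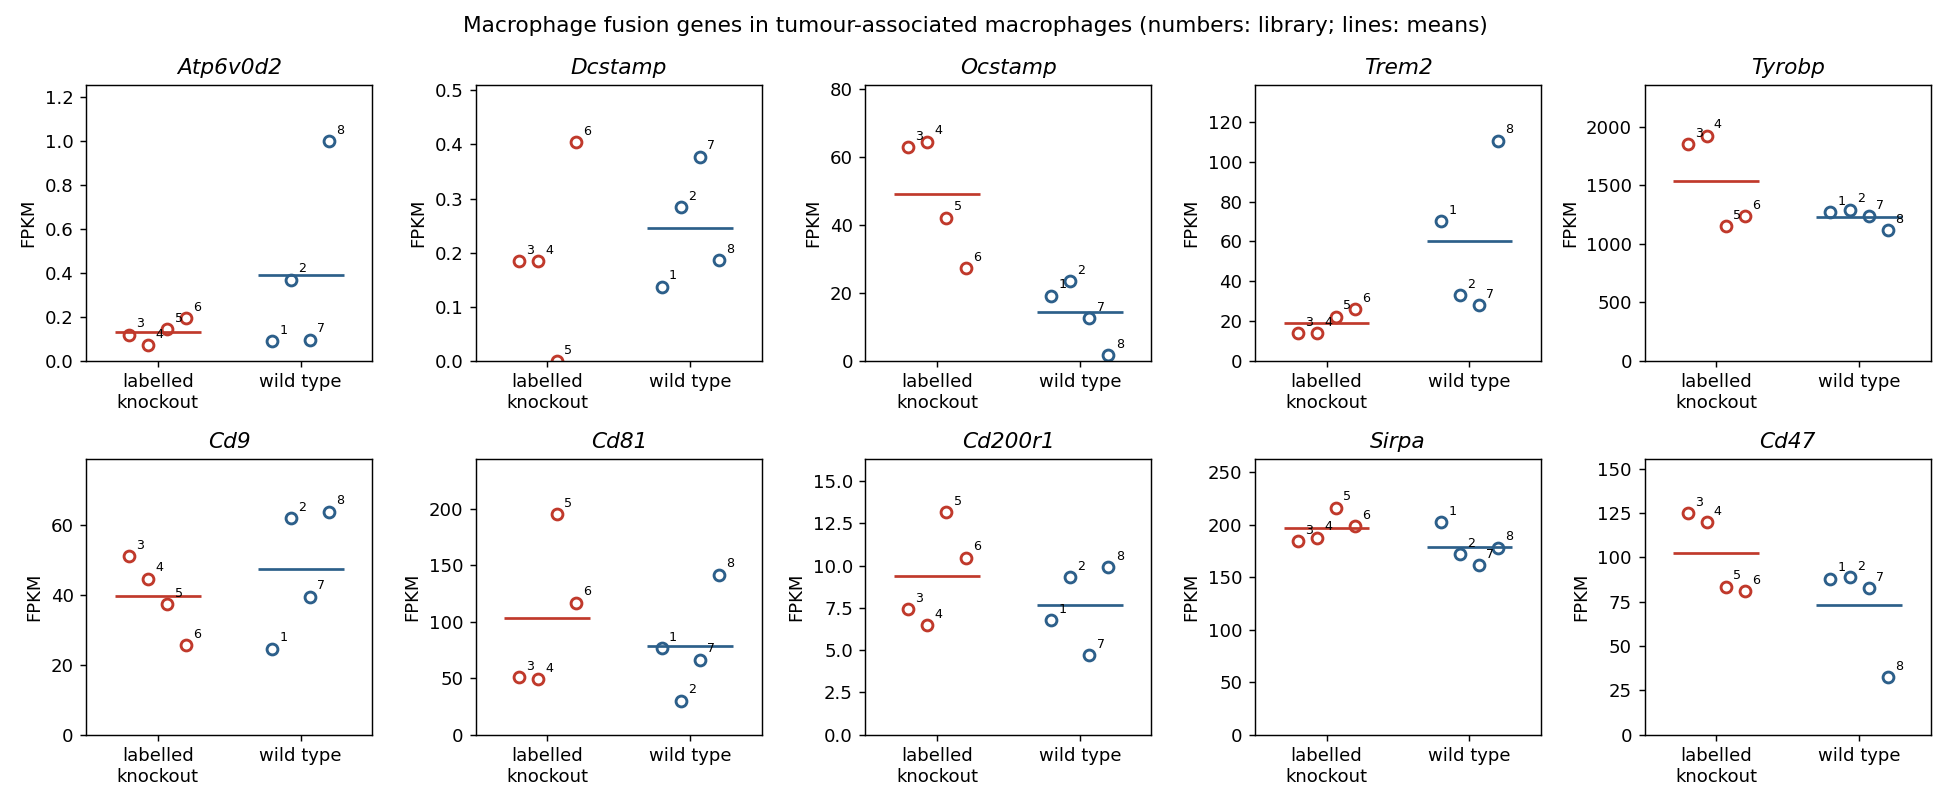
FPKM of the 10 fusion genes in each TAM library, labelled knockout left and wild type right, with library numbers and lines at the group means (n = 4; none where a library is listed at 0). Ocstamp is higher and Trem2 lower in every labelled knockout library. Wild-type library 8 is the lowest wild-type point for Ocstamp, Tyrobp and Cd47. It is the highest wild-type point for Atp6v0d2, Trem2, Cd9, Cd81 and Cd200r1.

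In all, 0 of the 8 members tested in TAM passed by limma, with 2 (Ocstamp and Trem2) at an unadjusted p under 0.05, and 0.101% of all genes passed. With array weights 3 of 8 passed, under weights that ran from 0.242 for wild-type library 8 to 4.38 for labelled knockout library 3. Labelled knockout library 4 had 3.05, against 0.335 and 0.463 for libraries 5 and 6. In wild type, library 1 had 3.10, against 0.855 and 0.754 for libraries 2 and 7. The weighted passes of Ocstamp, Trem2 and Tyrobp thus leaned on few libraries. Libraries 3 and 4 had the highest Ocstamp and Tyrobp and the lowest Trem2 in TAM. None of the other pathway lists had a gene past the threshold by limma in TAM. The smallest p-values went to Ptpn6, the phosphatase SHP-1 that SIRPA recruits (130 FPKM in labelled knockout and 76.6 FPKM in wild type, 0.75 ± 0.15), Cd200r4, an activating relative of Cd200r1 (20.5 and 7.93 FPKM, 1.36 ± 0.29), Cd300ld (71.3 and 44.9 FPKM, 0.66 ± 0.13) and Ptgfrn, a partner of CD9 and CD81 (2.24 and 8.24 FPKM, −1.46 ± 0.29), with adjusted p from 0.102 to 0.110.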

How the data were processed

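Expression values are FPKM per gene and library as the authors deposited them, from reads aligned with TopHat to mm9 and quantified with Cuffdiff, per the submitters' processing notes. Versions, annotation and library scaling are not given in the sources used here. The TAM table names no unit, and FPKM was taken from those notes and its values. FPKM corrects for length and total, so depth and counting error cannot be had from it.

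Values were analysed as log2(FPKM + 1) with limma 3.58.1 (R 4.3.3), empirical Bayes with an intensity trend. Genes needed 1 FPKM in 2 BMDM or 4 TAM libraries. The 12 BMDM libraries were fitted as 6 groups and the 8 TAM libraries as 2, each with 6 residual degrees of freedom. The fit was tested on simulated data. Also tried were a pseudocount of 0.1, dropping the filter, requiring 1 FPKM in every library, median-of-ratios scaling, quantile normalization, only the groups compared, replicate numbers as a block, array weights and leaving out each library. Replicate numbers shared by BMDM groups showed no strong pairing of the libraries (15 group pairs, correlations of deviations −0.14 to 0.15, 5 over 0.1). Correlations of this size cannot exclude a weak pairing, or one between some groups only.

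The genes, lists and tests were chosen with earlier results of these data known, and lists are described by counts with no set test. Besides the 10 members, a rule named the 3 genes of each list with the smallest p for 24 h IL4 in wild type, the 2 for genotype at 24 h and in TAM, the 3 nearest profiles, Atp6v0d1 and Tet2. Of these the text gives a part. Syk and single marker genes were named after their values were seen. Promoter windows are RefSeq's, GRCm38.p6. Figures used Python 3.11.15, pandas 2.3.3, numpy 2.4.6 and matplotlib 3.10.9.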

Additional observations from a re-analysis of the deposited data

Results flagged for a closer look

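Cd47 in TAM wild-type library 8 was 32.4 FPKM, far below the 82.9 to 88.8 FPKM of the other 3 wild-type libraries. Among 20 groups of 4 libraries examined in this way (10 genes in 2 groups) it was the 1 value to stand out, and chance marks about 1 in 20.

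For Ocstamp and Trem2 the genotype difference in TAM had the opposite direction to that at 1 of the 3 BMDM times, with no overlap between genotypes in either. Mean Ocstamp in labelled knockout was 3.46 times that of wild type in TAM and 0.715 times that of wild type in BMDM after 24 h of IL4, while the BMDM ratio was 1.29 untreated and 0.777 at 10 h, both with overlap. Mean Trem2 in labelled knockout was 0.315 times that of wild type in TAM and 1.18 times that of wild type in untreated BMDM. Its BMDM ratio was 0.955 at 10 h, with overlap, and 0.794 at 24 h, without overlap and in the same direction as in TAM. These times were singled out from 3 by their values. The difference between TAM and BMDM was not tested, because the tables come from different library types. By Xist and Y-linked genes, 7 of the 8 TAM libraries also differed in sex from the BMDM libraries.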

How the results depend on the processing

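Of the 13 counts of members past the threshold, these moved by over 1.5 times. At 10 h of IL4 in wild type the count was 3 when 1 FPKM was required in every library, which removes Dcstamp and Ocstamp, and 8 with quantile normalization. From 10 to 24 h in labelled knockout it was 3 under that filter. For labelled knockout against wild type it was, untreated, 1 under each of the other scalings (median-of-ratios, quantile), 1 at 10 h with only the groups compared and 2 at 24 h with quantile normalization, all from 0. The average over times fell to 1 of 3 with a replicate block, which moved no other count of members by that much. TAM gave 3 with array weights. With single libraries left out, the counts were 0 to 2 untreated, 0 to 1 at 24 h, 0 to 3 for the average over times and 0 to 1 for the 24 h interaction.

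Directions turned at 10 h in wild type for Cd200r1 (−0.076, quantile normalization), for Trem2 (−0.31 under the same setting and −0.025 under median-of-ratios scaling) and for Sirpa (−0.34 and −0.019), for Trem2 (−0.27), Tyrobp (−0.43) and Cd47 (−0.13) at 24 h in wild type (quantile normalization), and in TAM for Cd9 (0.49) and Cd81 (−0.24) with array weights and Sirpa with quantile normalization (−0.13) and array weights (−0.013). Leaving out single libraries gave −0.11 to 0.28 for Trem2 at 10 h in wild type, −0.062 to 0.0090 for Sirpa at 10 h in labelled knockout, −0.049 to 0.54 for Tyrobp, −0.40 to 0.17 for Cd81 and −0.013 to 0.37 for Cd47 at 24 h in wild type, −0.25 to 0.014 for Tyrobp at 24 h in labelled knockout and −0.042 to 0.69 for Cd81 in TAM. None of these differences passed with all libraries as deposited, but Trem2 and Sirpa at 10 h (adjusted p = 0.0396 and 0.0151) and Tyrobp at 24 h (0.0258) in wild type passed as lower with quantile normalization, and the cause was not tested. Dcstamp, Ocstamp, Atp6v0d2 and Cd9 kept their IL4 calls under every alternative in which they were tested. Dcstamp and Ocstamp passed the filter only through IL4-treated libraries, and requiring 1 FPKM in every library removed both. For these genes the kept calls are therefore a description. With 2 libraries a group and FPKM alone, small differences near the threshold rest on single libraries.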
